A study of Mus musculus with 4 samples.

Results

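The transcripts of the mitochondrial respiratory chain were followed in regulatory T (Treg) cells of the large intestine (LI) that carried or lacked Setd2. The members were chosen by gene name alone: all genes named Nduf, Uqcr or Atp5, those named Cox with a digit from 4 to 8, Sdha, Sdhb, Sdhc, Sdhd, Cyc1 and Cycs, and the protein-coding genes of the mitochondrial DNA, with pseudogene names left out. This gave 107 of the 53379 genes listed, of which 94 lie in the nucleus and 13 in the mitochondrial DNA. RNA-seq was carried out on CD3+CD4+YFP+ cells sorted from the LI of C57BL/6 mice aged 6 to 12 weeks in the steady state. Both groups expressed a Cre-YFP fusion from the Foxp3 locus, so deletion was restricted to cells that had turned on Foxp3. Control mice were Foxp3Cre-YFP Setd2 f/+ and thus had 1 floxed allele themselves, and KO mice were Foxp3Cre-YFP Setd2 f/f. Each group had 2 libraries, and each library came from a pool of 2 to 3 mice. The paper calls the mice littermates, without saying which pools shared a litter.

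The respiratory chain is built into the inner membrane of the mitochondrion. Complexes I and II pass electrons from NADH and succinate to coenzyme Q, complex III hands them to cytochrome c, complex IV delivers them to oxygen, and complex V, the ATP synthase, uses the proton gradient that complexes I, III and IV build up. Most subunits are encoded in the nucleus and imported, whereas a small core of complexes I, III, IV and V is encoded by the mitochondrial DNA, so that both genomes must supply each of these complexes. Treg cells are known for their reliance on oxidative phosphorylation, and Setd2 is the methyltransferase that trimethylates lysine 36 of histone H3 along transcribed genes.

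Values are FPKM, fragments scaled to transcript length and library total, as the authors deposited them. Log2 fold changes were computed from log2(FPKM + 1), with positive values where KO was higher, and are given with their standard error (SE). The p-values are from limma, and the adjusted p is by the Benjamini-Hochberg method over the 7639 protein-coding genes whose mean FPKM exceeded 5 in at least 1 group. The depth of the libraries is unknown. Because the 4 columns had the same or almost the same value at each of the 5000 top ranks, a gene among the most abundant could move only by changing rank. For 1 gene, the smallest p that 2 libraries against 2 allow in an exact permutation test is 0.333. Setd2 itself had 38.19 and 27.36 FPKM in control and 26.33 and 36.30 FPKM in KO libraries, a value over the whole gene that does not check the genotype. Of the Treg markers, Ctla4 and Il2ra were high in every library, with lowest values of 1593 and 152 FPKM, but Foxp3, which defines the cells, had only 2.62 and 5.61 FPKM in control and 4.66 and 3.05 FPKM in KO libraries and lay under the filter. Ctla4 and Ikzf2 differed between the groups at the unadjusted level, at 1593 and 1701 against 2160 and 2310 FPKM and at 120.75 and 115.57 against 84.12 and 98.36 FPKM.

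In KO LI Treg cells, the abundance of respiratory chain transcripts stayed close to that of control cells. None of the 99 members tested passed an adjusted p of 0.05. Of all genes tested, 24 were higher and 21 lower at that level, or 0.314% and 0.275%, shares so small that a list of this size need not hold any. In these bulk pools, fewer cells of a type and less RNA per cell cannot be told apart. The smallest adjusted p of a member was 0.0869. At an unadjusted p below 0.05, 5 of the 86 nuclear members tested were higher and 7 lower in KO cells, beside 8.61% of all genes higher and 7.57% lower. In both directions together, 12 of 86 nuclear members and 1236 of 7639 genes (16.2%) were past this level, so the members' share was near the background. These counts moved with single libraries, to 8 higher and 7 lower without control 1, 3 and 5 without control 2, 3 and 4 without KO 1, and 1 and 3 without KO 2. Complete separation of the groups was common in these libraries: both KO values lay above both control values for 21 nuclear members and below them for 19, beside 24.2% and 22.9% of all genes.

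The nuclear members also moved little in size. Their median log2 fold change was 0.04, with 54 above 0 and 32 below, and it was -0.0039 over all genes tested. The median size of the change, disregarding its sign, was 0.128 in the nuclear members and 0.177 in all genes, and 3 of 86 members (3.49%) against 9.63% of all genes differed by more than 0.5. The standard error was smaller too, at a median of 0.122 against 0.166. For 84 of the 86 the 95% interval of the change lay within 2-fold in both directions, as it did for 6912 of the 7639 genes. The nuclear members were also more abundant, with a median of 134.18 FPKM in control 1 against 22.73 FPKM for all genes tested. They were not compared with genes of similar abundance. Summed over the 94 nuclear members, the FPKM were 14688 and 14633 in control and 14839 and 15251 in KO libraries, which was 1.89% to 1.97% of the total of a library. Both KO sums were above both control sums, with a ratio of the means of 1.03.

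**Figure D1:**
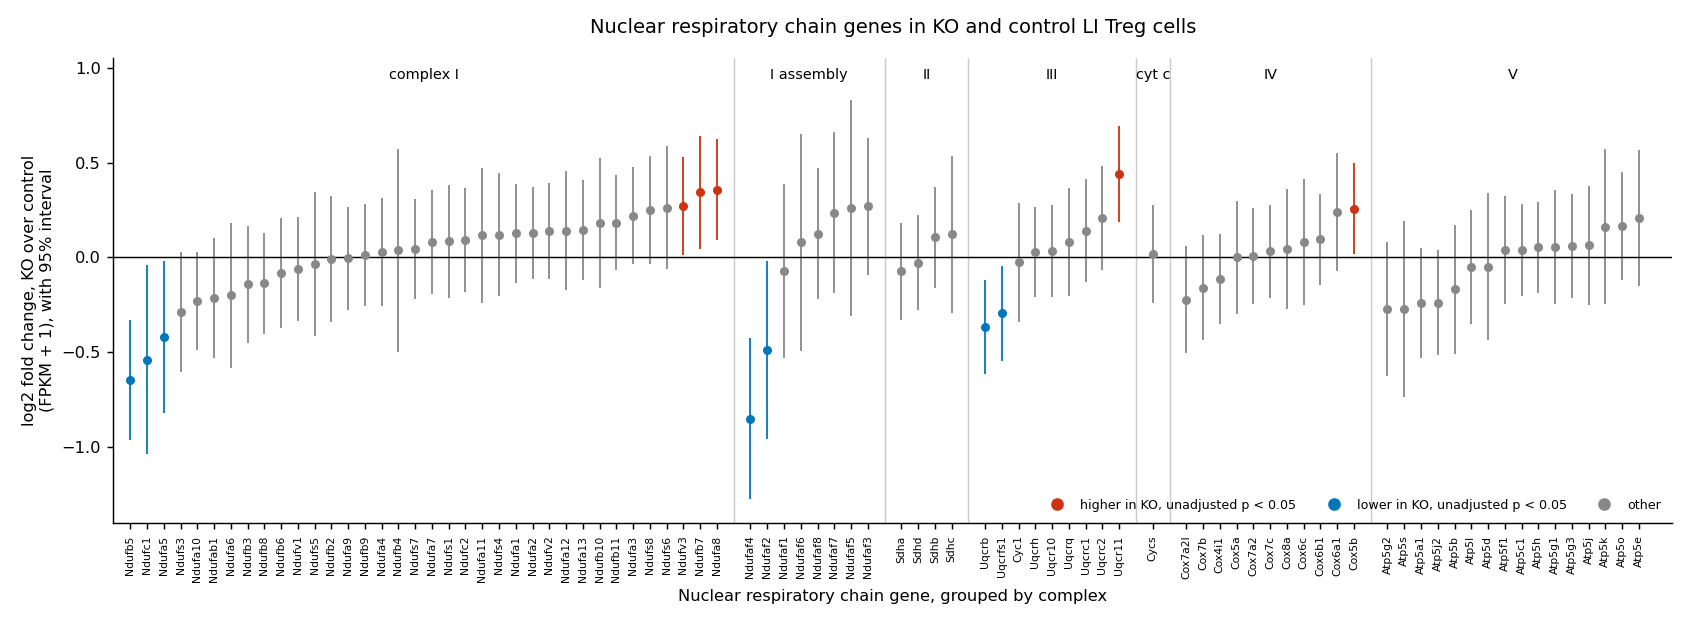
Log2 fold change of the tested nuclear genes reported here, with values above 0 where KO was higher, ordered within each complex. Points are estimates, lines are 95% intervals from limma, and colour marks an unadjusted p below 0.05. The 5 red and 7 blue genes lie in complexes I, III and IV and among the assembly factors of complex I, and complexes II and V hold none.

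Complex I, the NADH dehydrogenase and entry point of electrons from NADH, is the largest complex. Of the 38 nuclear members placed in it by name, 37 were tested. These 38 count Ndufa4, a subunit of complex IV by function, and its paralog Ndufa4l2. At the unadjusted level 3 of the 37 were higher and 3 lower (16.2% together, as in all genes). The median log2 fold change of the 37 was 0.04. Ndufb5, an accessory subunit in the membrane arm (chromosome 3, 32736990 to 32751566, GRCm38), had 90.55 and 106.52 FPKM in control and 58.63 and 66.48 FPKM in KO libraries. The KO values were both below the control values, with a log2 fold change of -0.65 (SE 0.13, adjusted p = 0.0869), the member with the smallest p. Its annotated exons share 616 of 4995 bases with Mrpl47 on the other strand, which reached at most 5.34 FPKM. Ndufc1, a small membrane subunit, had 53.21 and 51.50 FPKM in control and 45.29 and 28.08 FPKM in KO libraries, so that KO 2 carried most of the difference (log2 fold change -0.54, adjusted p = 0.279). Ndufa5, a subunit of the matrix arm, had 86.68 and 122.65 FPKM in control and 79.16 and 74.62 FPKM in KO libraries, and here control 2 stood apart from the other three (log2 fold change -0.42, adjusted p = 0.292).

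Ndufa8, an accessory subunit with disulfide bonds that faces the intermembrane space, had 107.53 and 99.64 FPKM in control and 127.95 and 137.80 FPKM in KO libraries. The groups did not overlap, and the log2 fold change was 0.36 (SE 0.11, adjusted p = 0.212). Ndufb7, another subunit on that side of the membrane, had 269.72 and 224.55 FPKM in control and 298.43 and 327.59 FPKM in KO libraries (log2 fold change 0.34, adjusted p = 0.254). Ndufv3, a subunit of the NADH-binding module, had 139.80 and 146.39 FPKM in control and 165.84 and 180.70 FPKM in KO libraries (log2 fold change 0.27, adjusted p = 0.290). Of the same module, Ndufv1, which binds NADH and flavin, had 69.44 and 72.92 FPKM against 70.28 and 66.05 FPKM, with overlapping groups. Ndufv2 had 134.74 and 127.42 FPKM against 146.39 and 142.60 FPKM, with the KO values above and an adjusted p of 0.572.

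The catalytic core of complex I varied in both directions by small amounts. Ndufs8, which holds iron-sulfur clusters, had 109.25 and 96.80 FPKM in control and 116.45 and 129.03 FPKM in KO libraries (log2 fold change 0.25, adjusted p = 0.367). Ndufs3, a core subunit of the matrix arm, had 110.74 and 92.64 FPKM in control and 78.33 and 87.65 FPKM in KO libraries (log2 fold change -0.29, adjusted p = 0.349). Neither passed the unadjusted level, and neither did the accessory subunits Ndufa3, at 102.85 and 100.79 against 122.58 and 115.23 FPKM, and Ndufs6, at 103.86 and 117.03 against 119.58 and 146.60 FPKM. Ndufs1, which carries electrons from the NADH module, had 45.22 to 52.58 FPKM over the 4 libraries, with no separation of the groups. The most abundant nuclear transcript of complex I was Ndufa1, at 611.55 and 547.02 FPKM in control and 614.83 and 648.86 FPKM in KO libraries (log2 fold change 0.13, adjusted p = 0.623).

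Assembly factors of complex I are not part of the finished enzyme but hold or modify its intermediates. All 8 members of this kind were tested, and they included the nuclear gene with the largest difference. Ndufaf4, which acts on an early intermediate (chromosome 4, 24898083 to 24905001, GRCm38), had 13.82 and 12.33 FPKM in control and 6.41 and 7.21 FPKM in KO libraries. Both KO values were well under both control values, with a log2 fold change of -0.85 (SE 0.18, adjusted p = 0.0919). Ndufaf2, which acts late in assembly, had 11.35 and 11.95 FPKM in control and 6.89 and 9.33 FPKM in KO libraries (log2 fold change -0.49, adjusted p = 0.297). Both lie near the filter of 5 FPKM, where a value rests on fewer reads. The other 6 did not pass the unadjusted level and ranged in log2 fold change from -0.07 for Ndufaf1 to 0.27 for Ndufaf3.

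The promoters of the nuclear members were read to place these differences beside the sequences that regulate such genes. NRF1, GABP (an ETS factor) and YY1 are textbook regulators of nuclear respiratory genes, and the RefSeq windows of GRCm38.p6, from 250 bases before to 50 bases after a start site, were searched on both strands for the NRF1 core GCATGCGC, the ETS letters CCGGAAG and the YY1 letters AAGATGG. A window was found for 75 of the 94 nuclear members, some with several starts. The NRF1 core lay in 13 of their 80 windows (16.3%), against 5.82% of the windows of tested genes and 2.71% of all 32851 windows of this length. The ETS letters lay in 22.5% of the members' windows, close to the 21.3% of tested genes, and the YY1 letters in 13.8% against 8.18%. Below are the windows of the 2 nuclear members with the smallest p in each direction, 5′ to 3′, with the matches in capitals. They are Uqcr11 (chr10:80406772-80407071, minus strand) and Ndufa8 (chr2:36049289-36049588, minus strand), which were higher in KO cells, and Ndufb5 (chr3:32736813-32737112, plus strand) and Ndufaf4 (chr4:24897833-24898132, plus strand), which were lower.
Uqcr11: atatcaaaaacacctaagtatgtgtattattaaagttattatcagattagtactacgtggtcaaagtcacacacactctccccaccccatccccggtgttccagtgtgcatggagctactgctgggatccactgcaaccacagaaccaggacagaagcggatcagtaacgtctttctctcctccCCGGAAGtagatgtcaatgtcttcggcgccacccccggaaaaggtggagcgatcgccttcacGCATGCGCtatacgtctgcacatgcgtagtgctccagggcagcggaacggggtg
Ndufa8: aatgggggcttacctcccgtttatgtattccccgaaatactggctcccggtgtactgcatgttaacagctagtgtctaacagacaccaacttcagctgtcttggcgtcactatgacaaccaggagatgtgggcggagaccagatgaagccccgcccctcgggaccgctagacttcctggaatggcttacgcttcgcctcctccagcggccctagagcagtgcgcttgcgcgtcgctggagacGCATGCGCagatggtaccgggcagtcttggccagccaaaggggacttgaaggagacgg
Ndufb5: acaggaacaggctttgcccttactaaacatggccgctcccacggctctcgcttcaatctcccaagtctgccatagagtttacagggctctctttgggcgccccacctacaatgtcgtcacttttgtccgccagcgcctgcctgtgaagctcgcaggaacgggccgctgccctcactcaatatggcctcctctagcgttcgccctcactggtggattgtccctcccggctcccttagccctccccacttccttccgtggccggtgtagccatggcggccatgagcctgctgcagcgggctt
Ndufaf4: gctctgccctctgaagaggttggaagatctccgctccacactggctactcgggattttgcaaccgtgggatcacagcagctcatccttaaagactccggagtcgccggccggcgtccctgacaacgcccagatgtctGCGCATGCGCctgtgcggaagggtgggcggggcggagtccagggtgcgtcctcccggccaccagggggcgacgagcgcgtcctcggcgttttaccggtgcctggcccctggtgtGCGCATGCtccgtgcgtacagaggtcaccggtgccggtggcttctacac
Uqcr11 had ETS letters and an NRF1 core close to its start, Ndufa8 had an NRF1 core at a similar place, and Ndufaf4 had an NRF1 core read on both strands of the same site plus another at its start. Ndufb5 had none of these letters in this window. The NRF1 core was thus present among members on both sides: it lay in 2 of the 5 windows of members higher at the unadjusted level and in 1 of the 7 windows of those lower. The 7 windows came from 6 genes, with overlapping windows for Ndufa5 and none for Uqcrb.

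Complex II, the succinate dehydrogenase, joins the respiratory chain to the tricarboxylic acid cycle and has no subunit from the mitochondrial DNA. None of its 4 genes passed the unadjusted level. Sdha, the flavoprotein that oxidises succinate, had 130.51 and 133.21 FPKM in control and 129.62 and 121.24 FPKM in KO libraries. Sdhb, the iron-sulfur subunit and the most abundant of the 4, had 345.09 and 303.66 FPKM in control and 339.44 and 358.02 FPKM in KO libraries. The membrane anchors Sdhc and Sdhd had 32.16 to 44.99 FPKM and 142.71 to 150.00 FPKM over the 4 libraries, with overlapping groups. The 95% intervals of all 4 lay within 2-fold, and the widest, that of Sdhc, ran from -0.29 to 0.54 on the log2 scale.

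Complex III, which passes electrons from coenzyme Q to cytochrome c, had members in both directions. At the unadjusted level 1 of its 9 nuclear genes was higher and 2 were lower (33.3% together, beside 16.2% of all genes). None of the 9 passed the adjusted level, and the median log2 fold change was 0.03. Whether the share of so few genes differs from that of all genes was not tested. Uqcr11, its smallest subunit (chromosome 10, 80402997 to 80406830, GRCm38), had 211.17 and 233.85 FPKM in control and 300.78 and 303.18 FPKM in KO libraries. The KO libraries were nearly equal and both above the control libraries, with a log2 fold change of 0.44 (SE 0.11, adjusted p = 0.125), the highest of all nuclear members. Uqcrb, which takes part in the assembly of the complex and lies near the site of coenzyme Q, had 199.97 and 210.78 FPKM in control and 160.19 and 157.90 FPKM in KO libraries (log2 fold change -0.37, SE 0.11, adjusted p = 0.174). Uqcrfs1, the Rieske iron-sulfur protein that is added last, had 180.97 and 192.27 FPKM in control and 154.80 and 149.29 FPKM in KO libraries (log2 fold change -0.29, adjusted p = 0.247). In both genes the groups were apart and the libraries within a group were close. Both were picked by their p, so this separation is no separate result.

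The other catalytic and core subunits of complex III did not pass the unadjusted level. Cyc1, cytochrome c1, had 80.25 and 91.19 FPKM in control and 90.95 and 77.56 FPKM in KO libraries, with overlapping groups. Uqcrc1, a core protein and the most abundant nuclear transcript of the complex, had 552.91 and 474.93 FPKM in control and 564.82 FPKM in both KO libraries, a log2 fold change of 0.14 (adjusted p = 0.601). Uqcrc1 and the assembly factor Ndufaf3 lie 1.60 and 1.97 Mb from Setd2 on chromosome 9, and alleles linked to the floxed locus cannot be told apart there from the loss of Setd2. Ndufaf3 had 23.47 and 20.10 FPKM in control and 24.70 and 28.22 FPKM in KO libraries, without passing the unadjusted level.

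**Figure D2:**
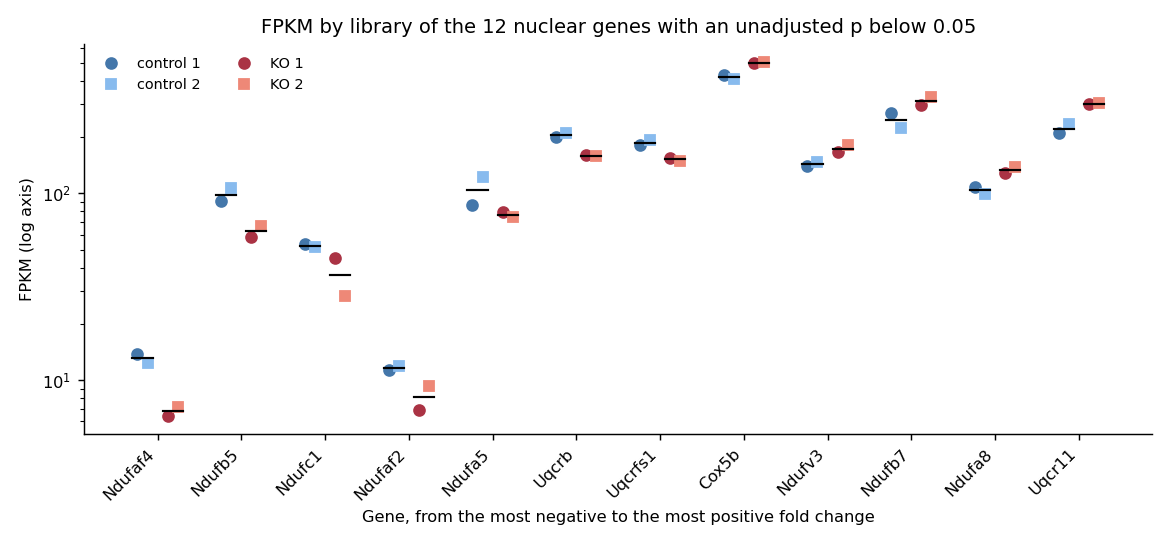
FPKM in each library (log axis) of the 12 nuclear genes with an unadjusted p below 0.05, from the most negative to the most positive fold change. Circles and squares are libraries and black bars are group means. The groups do not overlap in any of the 12, which were picked by that p, so their separation is no separate result. Of all tested genes, 24.2% were separated with KO higher and 22.9% with KO lower. On the log axis the 2 KO libraries lie farthest apart for Ndufc1, at 45.29 and 28.08 FPKM.

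Cytochrome c, the soluble carrier between complexes III and IV that is also known for its release in apoptosis, was level between the groups. Its gene Cycs had 127.27 and 120.10 FPKM in control and 121.70 and 128.88 FPKM in KO libraries (log2 fold change 0.02, with a 95% interval from -0.24 to 0.28).

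Complex IV, the cytochrome c oxidase, had 11 of the 18 nuclear members placed in it by name tested. Of the 11, 1 was higher and none lower at the unadjusted level (9.09% together, beside 16.2% of all genes). Cox5b, a subunit on the matrix side, had 428.93 and 410.53 FPKM in control and 497.04 and 507.23 FPKM in KO libraries, with a log2 fold change of 0.26 (SE 0.10, adjusted p = 0.282). Cox4i1, the regulatory subunit that binds adenine nucleotides and the most abundant nuclear transcript of the complex, had 537.51 and 543.41 FPKM in control and 490.10 and 508.25 FPKM in KO libraries (log2 fold change -0.11, adjusted p = 0.626). The 7 genes that were not tested are isoforms of other tissues, such as lung, skeletal muscle, heart and testis, namely Cox4i2, Cox6a2, Cox6b2, Cox7a1, Cox7b2, Cox8b and Cox8c. Of these Cox7a1 reached 4.45 FPKM in control 2, and the others stayed at or under 1.07 FPKM in every library. Ndufa4l2, a paralog of Ndufa4 that is known as a gene of hypoxia, is counted above under complex I by its name. It was likewise untested, at 1.41 and 0.76 FPKM in control and 0.38 FPKM in both KO libraries. Their counterparts in most tissues had 62.62 FPKM or more in every library, with the lowest value for Cox7b, and ranged from 201.45 to 279.13 FPKM for Cox6a1 and from 192.81 to 211.17 FPKM for Cox7a2, with Cox4i1 above both. The LI Treg cells of both groups thus used the common isoforms.

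Complex V, the ATP synthase, had no member past the unadjusted level among its 16 genes, and its median log2 fold change was 0.04. Atp5b, the catalytic beta subunit and the most abundant of them, had 445.77 and 536.04 FPKM in control and 483.12 and 392.08 FPKM in KO libraries, with overlapping groups (log2 fold change -0.17, adjusted p = 0.619). Its partner Atp5a1, the alpha subunit, had 258.52 and 291.67 FPKM in control and 249.86 and 216.50 FPKM in KO libraries (adjusted p = 0.397). Subunit c, which forms the rotating ring, is made as the same mature protein from 3 genes. Atp5g1 had 370.01 and 306.37 FPKM in control and 333.08 and 367.90 FPKM in KO libraries, and was the most abundant of the 3 in every library. Atp5g2 had 69.67 and 90.58 FPKM against 67.91 and 63.28 FPKM (log2 fold change -0.27, adjusted p = 0.421), and Atp5g3 had 142.99 and 142.60 FPKM against 138.98 and 160.07 FPKM.

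The 13 mitochondrially encoded transcripts differed among themselves over a wide range. As listed, 7 of them had a higher mean over the 4 libraries than any nuclear member, while mt-Nd3, mt-Nd4l and mt-Nd6 lay below the nuclear median. The level of mt-Nd4l is uncertain, because its listed value leaves out an identical nuclear copy. With that copy added by length, it had 528 and 537 FPKM in control and 384 and 554 FPKM in KO libraries. Poly(A) RNA was sequenced, and most mitochondrial messages carry short poly(A) tails. How evenly this selection captured the 13 transcripts, mt-Nd6 among them, was not tested. The highest was mt-Atp8, a small subunit of complex V, at 8867 FPKM in both control libraries and 8302 and 10095 FPKM in KO libraries. The gene spans only 204 bases, and how far this short length affects its FPKM was not tested. The equal control values are the value of rank 5, which mt-Atp8 held in both, and it held ranks 6 and 4 in the KO libraries. mt-Atp6, which shares 43 bases with mt-Atp8 on the same transcript, had 5865 and 4983 FPKM in control and 4983 and 6607 FPKM in KO libraries. mt-Cytb, the only mitochondrially encoded subunit of complex III, had 4437 and 3711 FPKM in control and 4284 and 4710 FPKM in KO libraries. In sum, the 13 genes took 25965 and 23918 FPKM in control and 23088 and 28819 FPKM in KO libraries, or 3.35%, 3.09%, 2.98% and 3.72% of the total of each library. Without mt-Atp8, mt-Nd3 and mt-Nd4l, the sums were 17022 and 14961 FPKM in control and 14672 and 18680 FPKM in KO libraries. The KO libraries had both the lowest and the highest of these sums, which leave out the nuclear copies described further on. Those copies held 8530 and 8097 FPKM in control and 9210 and 11474 FPKM in KO libraries, summed without weighting by length. Whether the order of the libraries holds with the copies weighted by length was not tested.

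None of the 13 was higher and 2 were lower in KO cells at the unadjusted level, beside 8.61% and 7.57% of all genes, and none passed the adjusted level. In both directions together this was 15.4% of the 13 and 16.2% of all genes, so the count was near the background. Their median log2 fold change was -0.02, with 6 above 0 and 7 below. mt-Nd6, a subunit of complex I and the only protein-coding gene on the light strand, had 97.61 and 78.05 FPKM in control and 58.34 and 68.37 FPKM in KO libraries. The KO values were below the control values, with a log2 fold change of -0.46 (SE 0.15, adjusted p = 0.221). It overlaps mt-Nd5 on the opposite strand by 14 of 519 bases, and whether the counting used strand is not stated in the sources used here. mt-Co3, a subunit of the core of complex IV, had 1249 and 1376 FPKM in control and 782 and 1133 FPKM in KO libraries (log2 fold change -0.48, SE 0.18, adjusted p = 0.254), a value that changed once the FPKM of its nuclear copy were added, as described further on.

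The subunits of complex I ranged from mt-Nd1, at 1514 and 1497 FPKM in control and 1195 and 1661 FPKM in KO libraries, over mt-Nd4, at 449.20 and 415.43 against 360.44 and 460.81 FPKM, to mt-Nd5, at 162.22 and 138.98 against 112.66 and 143.29 FPKM. mt-Nd2 had 174.47 and 165.68 FPKM in control and 152.73 and 183.09 FPKM in KO libraries. In each of the 4 the groups overlapped, and the 2 KO libraries lay farther apart than the 2 control libraries. The core subunits of complex IV, mt-Co1 and mt-Co2, had 2357 and 1846 against 2072 and 2881 FPKM, and 716.55 and 749.94 against 671.79 and 832.04 FPKM.

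**Figure D3:**
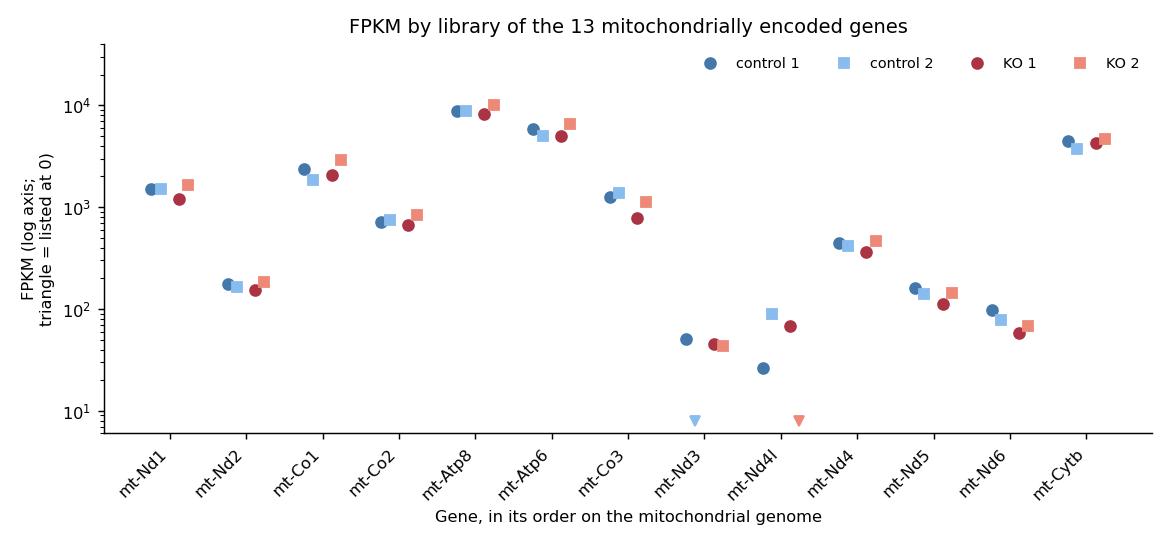
FPKM in each library (log axis) of the 13 mitochondrially encoded genes, in their order on the mitochondrial DNA. Symbols are libraries and triangles at the foot mark a gene listed at 0. KO 2 lies above KO 1 in all but mt-Nd3 and mt-Nd4l, and the groups overlap except for mt-Co3 and mt-Nd6.

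The spread within the KO group was shared by most of these genes. KO 2 was above KO 1 for 11 of the 13, which were all 11 of the genes above 0 in every library, compared with 3820 of the 7639 tested genes and 55 of the 86 nuclear members (64.0%). In the control group, control 1 was above control 2 for 8 of these 11 (72.7%), beside 51.4% of all tested genes. The ribosomal RNAs of the mitochondrion are made from the same strand as most of these messages and serve as a comparison. In a fit over all gene types, mt-Rnr1 had 625.98 and 661.57 FPKM in control and 823.91 and 899.11 FPKM in KO libraries (log2 fold change 0.42, adjusted p = 0.203). mt-Rnr2 had 3121 and 2649 FPKM in control and 2881 and 3711 FPKM in KO libraries, with overlapping groups and the higher KO value again in KO 2.

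The 2 shortest members of complex I could not be compared between the groups. mt-Nd3 (348 bases) had 50.63 FPKM in control 1 and was listed at 0 in control 2, with 45.68 and 43.70 FPKM in KO libraries. mt-Nd4l (297 bases) had 26.14 and 90.17 FPKM in control libraries and 67.51 FPKM in KO 1, and was listed at 0 in KO 2. Both lie between abundant genes on the same transcript. A fitted change between these groups depends on the pseudocount and is no measure of a fold, with standard errors of 1.49 and 1.66 on the log2 scale.

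Of the 13 genes, 7 have a near-identical copy on chromosome 1 in the annotation, a piece of mitochondrial DNA in the nuclear genome. The copy of mt-Nd4, Gm28439, had at most 2.78 FPKM. The other 6 had a mean above 5 FPKM and lie in a single stretch from 24612407 to 24616197 (GRCm38). mt-Atp6, mt-Co2, mt-Co3 and mt-Nd4l match their copies Gm10925, Gm28661, Gm28437 and Gm10222 at every base of 678, 681, 783 and 294 compared. Reads that fit both cannot be told apart by sequence, and how they were divided between a pair was not tested. The copy of mt-Nd3, Gm28438, differs from it at 1 of 345 bases, T3C, counted from 1 at the first base of the gene with the mitochondrial base first. No other of the 345 compared bases can assign a read to mt-Nd3, and the rest of its 348 bases was not compared. The first 33 bases of both are shown 5′ to 3′ with the differing base in capitals, from chrM:9459-9491 (plus strand) and chr1:24613087-24613119 (minus strand) of GRCm38.
mt-Nd3: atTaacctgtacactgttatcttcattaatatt
Gm28438: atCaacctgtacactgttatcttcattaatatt
Gm28438 had 30.74 and 95.33 FPKM in control and 32.09 and 82.30 FPKM in KO libraries, highest in control 2, where mt-Nd3 was listed at 0. Likewise Gm10222 had 507.23 and 451.88 FPKM in control and 319.42 and 559.61 FPKM in KO libraries, highest in KO 2, where mt-Nd4l was listed at 0. Weighted by length, the copy held 37.6%, 100%, 41.1% and 65.1% of the mt-Nd3 pair in control 1, control 2, KO 1 and KO 2, and 95.1%, 83.2%, 82.4% and 100% of the mt-Nd4l pair.

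With the pairs summed, no library was at 0 for mt-Nd3 or mt-Nd4l, and the groups overlapped for mt-Co3. The mt-Nd3 pair had 81.1 and 94.5 FPKM in control and 77.5 and 125 FPKM in KO libraries, a log2 fold change of 0.17. The mt-Nd4l pair had 528 and 537 FPKM in control and 384 and 554 FPKM in KO libraries, a log2 fold change of -0.21. For mt-Co3, the copy Gm28437 had 854.03 and 746.43 FPKM in control and 958.94 and 1416.91 FPKM in KO libraries, thus higher in KO where mt-Co3 was lower, and it held 40.6% and 35.1% of the pair in control but 55.1% and 55.5% in KO libraries. The summed pair had 2102 and 2122 FPKM in control and 1740 and 2548 FPKM in KO libraries, with a log2 fold change of -0.0044 (adjusted p = 0.994) and overlapping groups. The sums of the pairs for mt-Co1, mt-Atp6 and mt-Co2 had log2 fold changes of 0.28, 0.16 and 0.09. mt-Nd6 has no such copy, and with the pairs summed it was the only mitochondrially encoded gene past the unadjusted level. This sum was chosen after the values were seen.

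**Figure D4:**
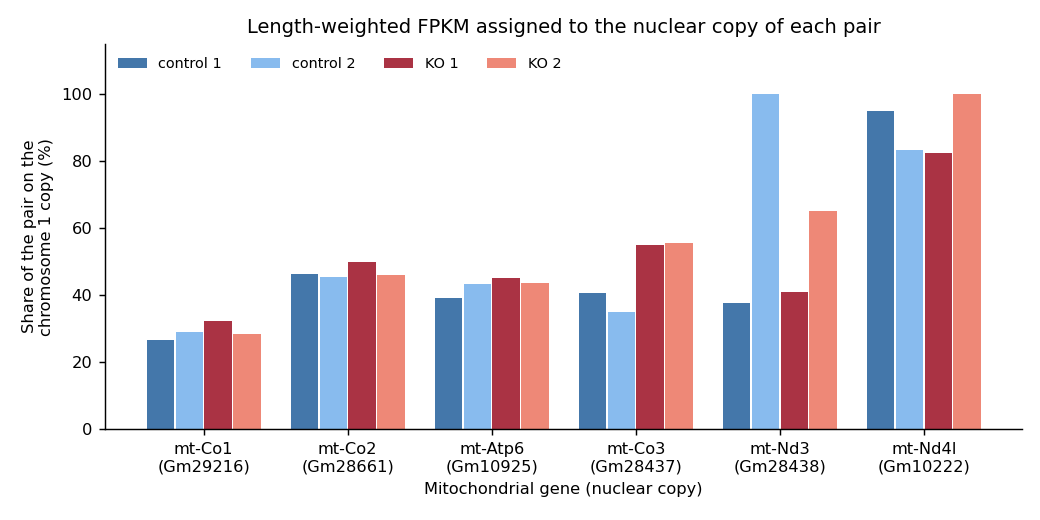
Share of each pair, in percent of its length-weighted FPKM, that was listed for the chromosome 1 copy in each library. The share for mt-Co3 was 40.6% and 35.1% in control and 55.1% and 55.5% in KO libraries, and it reached 100% for mt-Nd3 in control 2 and for mt-Nd4l in KO 2.

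Nuclear members also have copies, mostly processed pseudogenes without introns. For Ndufb4, a subunit of complex I at 18.08 and 13.97 FPKM in control and 13.27 and 20.08 FPKM in KO libraries, the pseudogene Gm3244 had the higher value, at 94.47 and 96.14 against 75.45 and 91.81 FPKM, or 64.7% to 73.4% of the pair. The level of Ndufb4 is therefore uncertain. Gm10053, a copy of Cycs, had 68.45 to 91.77 FPKM, or 14.7% to 17.7% of that pair, and Gm10175, a copy of Atp5g2, had 12.24 to 25.06 FPKM. Gm10221, which matches Atp5l at each base over 309 bases, had 12.12 and 19.71 FPKM in control and 34.77 and 27.77 FPKM in KO libraries, but held at most 6.95% of its pair, and Atp5l had overlapping groups. With all members summed with their copies, the counts of nuclear members past the unadjusted level were again 5 higher and 7 lower.

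Around the respiratory chain, 7 further lists of mitochondrial genes were examined, and no gene in them passed an adjusted p of 0.05. The mitochondrial ribosome, which translates the 13 messages, had 77 of 78 genes tested, of which 2 were higher and 3 lower at the unadjusted level (6.49% together, beside 16.2% of all genes), with a median log2 fold change of -0.01. Mrpl14 had 45.74 and 45.40 FPKM in control and 59.40 and 60.06 FPKM in KO libraries, and Mrps5 had 13.66 and 22.14 FPKM against 9.27 and 11.22 FPKM (adjusted p = 0.197 and 0.222). Assembly factors outside the name rule had 37 of 44 genes tested, with 2 higher and 1 lower (8.11%) and a median of 0.06. Tmem126b, a factor for complex I, had 6.09 and 5.30 FPKM in control and 8.80 and 9.24 FPKM in KO libraries, and Pet100, a factor for complex IV, had 36.93 and 48.24 FPKM against 32.15 and 28.17 FPKM (adjusted p = 0.222 and 0.232). In both lists the share past the unadjusted level was below that of all genes.

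The genes that transcribe mitochondrial DNA and handle its RNA had 27 of 34 tested, with 4 higher and 2 lower (22.2%) and a median of -0.07. Fastkd3, an RNA-binding protein of mitochondria, had 31.42 and 23.94 FPKM in control and 43.52 and 35.84 FPKM in KO libraries (log2 fold change 0.51, adjusted p = 0.227). Tfam, which packages mitochondrial DNA and starts its transcription, had 34.57 and 29.96 FPKM in control and 23.65 and 20.69 FPKM in KO libraries. Its groups did not overlap, and the log2 fold change was -0.52 (SE 0.15, adjusted p = 0.173). The regulators of respiratory genes had 7 of 10 tested, with none higher and 2 lower (28.6%), which were Tfam, a member of both lists, and Myc, a broad activator of growth genes. Myc had 63.35 and 76.96 FPKM in control and 39.87 and 37.80 FPKM in KO libraries (log2 fold change -0.83, adjusted p = 0.0612). Nrf1 itself had 82.25 and 81.84 FPKM in control and 93.87 and 80.47 FPKM in KO libraries, and Gabpb1, the partner subunit of GABP, had 184.63 and 205.47 FPKM against 221.06 and 196.67 FPKM, both with overlapping groups. Gabpa, its ETS subunit, had 26.34 and 26.08 FPKM in control and 25.14 and 25.46 FPKM in KO libraries, without overlap but by a log2 fold change of only -0.049 (adjusted p = 0.902).

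The metabolic neighbours of the chain had few genes past the unadjusted level. Of 18 genes of the tricarboxylic acid cycle and pyruvate dehydrogenase, 1 was lower at the unadjusted level (5.56%), with a median of 0.03. Of those with a positive fold change, Pdhx, a component of pyruvate dehydrogenase, had the smallest p, at 8.27 and 8.15 FPKM in control and 10.10 and 11.38 FPKM in KO libraries (adjusted p = 0.392). None of the 9 of 13 genes tested for coenzyme Q synthesis passed, where Coq2 and Coq8a had the smallest p in each direction (adjusted p = 0.474 and 0.451). None of the 14 carriers, channels and antioxidant enzymes passed either, with Prdx3 and Vdac1 nearest (adjusted p = 0.406 and 0.584).

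**Figure D5:**
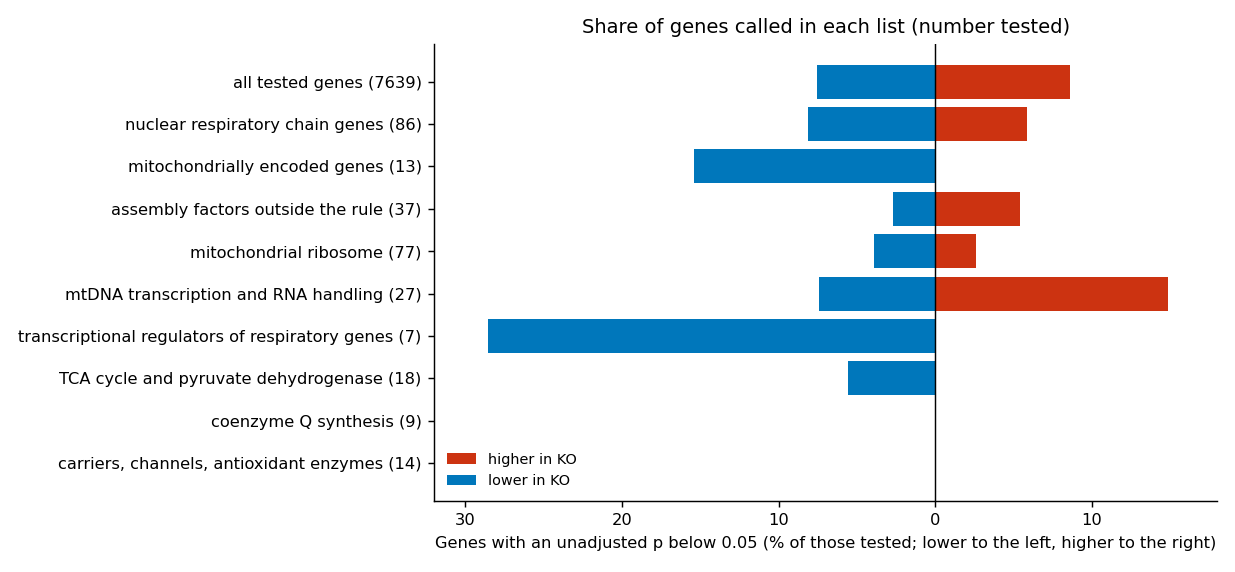
Share of the tested genes of each list with an unadjusted p below 0.05 from limma, lower in KO to the left and higher to the right, with the number tested in brackets. The nuclear respiratory chain genes, at 5 higher and 7 lower of 86, lie beside all tested genes at 8.61% and 7.57%, and the bars over lists with few genes stand for 1 or 2 genes.

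Markers of other cells were read beside these values. Of 8 epithelial markers, Krt8, Krt20, Vil1, Muc2, Cdh1 and Car1 stayed at or under 0.49 FPKM. Epcam had 28.65 and 30.81 FPKM in control and 19.58 and 21.13 FPKM in KO libraries, and Krt18 had 4.23 and 4.52 against 7.22 and 7.18 FPKM, in the opposite direction. The 5 markers of B and plasma cells summed to 400.7 and 603.0 FPKM in control and 411.0 and 491.6 FPKM in KO libraries, the 6 of myeloid cells to 187.0 and 165.9 against 161.2 and 210.7 FPKM, and the 4 of stromal and endothelial cells to 35.8 and 37.4 against 50.4 and 43.6 FPKM. The last sum was almost all Pecam1, an endothelial gene, at 34.65 and 36.26 against 49.25 and 42.72 FPKM, and Col1a1, Col3a1 and Pdgfra stayed at or under 0.68 FPKM. The 4 markers of CD8 T and NK cells summed to at most 3.55 FPKM, and the 2 of red cells to 15.54 and 1.52 against 21.73 and 7.05 FPKM. The part of other cells in the differences above was not tested.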

How the data were processed

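RNA-seq of LI Treg cells was used, with 2 control and 2 KO libraries. As described by the authors, oligo dT-selected RNA was sequenced as pairs of 150 bp, aligned with STAR v2.5 (GRCm38), and RSEM v1.2 gave gene values. FPKM of 53379 genes were deposited by the authors. The columns hold the same value in all libraries at 2172 of the 5000 top ranks, as quantile normalization gives, and their sums differ by at most 0.0098%, so depth and counting error are unknown. Library numbers are those of the titles. 53274 identifiers were found in GENCODE M21 (GRCm38), a release later than the authors' M16.

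Protein-coding genes whose mean FPKM exceeded 5 in at least 1 group (7639) were tested with limma 3.58.1 in R 4.3.3 on log2(FPKM + 1), with a trend, no covariate and Benjamini-Hochberg adjustment. The fit was tested on simulated data. p-values measure only the spread between 2 pools per group. Copies were found with BLAST+ 2.17.0 (identity of at least 95%, same sense, covering at least 50% of the member or 80% of the copy). Named genes were the 13 mitochondrial ones, the 8 nuclear ones with the smallest p in each direction, the most abundant of each complex, complex II, Cyc1, Cycs, subunit c genes and, of each other list, the smallest p in each direction; Ndufv1, Ndufv2, Ndufs1, Atp5a1, Ndufaf1, Ndufaf3, Cox6a1, Cox7a2, Cox7b, Nrf1, Gabpa, the ribosomal RNAs and genes with copies were added after their values were seen. The members and lists were chosen with earlier results of these data known. Same-numbered libraries were not treated as pairs, because their deviations from the group means had r = -0.305. Whether they shared litters is not stated in the sources used here. Alternatives concerned the pseudocount, filter, gene types, scaling, trend, block, copies and left-out libraries. Python 3.11.15, numpy 2.4.6, pandas 2.3.3 and matplotlib 3.10.9 were used for tables and figures. No per-sample column was left out. A few genes are counted but not reported here by name.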

Additional observations from a re-analysis of the deposited data

How the results depend on the processing

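No nuclear member passed the adjusted level in any setting except the crossed pairing, and the direction of the 42 members named by rule held in every setting that kept all 4 libraries. Ndufb4, not among them, turned from 0.037 to -0.12 with copies summed. Over all tested genes, the adjusted calls moved to 11 lower with a filter of 1 FPKM, to 8 higher and 3 lower (1198 higher at the unadjusted level) with no filter, to 5 higher and 8 lower over all gene types, and to 1 and 2 without the trend. At the unadjusted level, nuclear members numbered 4 lower over all gene types and 2 higher and 4 lower without the trend, and mitochondrially encoded members 0 lower with no filter and 1 lower without the trend or, in a setting added after seeing the data, with copies summed. The cause of these moves was not tested. A fit that took the replicate number as a block called 419 genes higher and 377 lower (15 and 12 adjusted). These held 1 and 4 nuclear members, and 1 mitochondrially encoded gene was higher. That gene was mt-Nd3, listed at 0 in control 2, so its fitted change is no fold. Deviations of same-numbered libraries correlated at r = -0.305, so a crossed pairing was added after seeing the data. Because that correlation picked the pairing, more calls under it are no separate result, for members as well. The crossed pairing gave 1008 genes higher and 983 lower (240 and 225 adjusted). These held 9 and 13 nuclear members (1 and 2 adjusted) and 1 and 4 mitochondrially encoded members (1 lower adjusted). Of the latter, mt-Nd3 was the 1 higher and mt-Nd4l was among the 4 lower, and neither fitted value is a fold. Leaving out each library in turn gave 330 to 650 genes higher and 314 to 600 lower, 1 to 36 and 1 to 30 adjusted, 1 to 8 and 3 to 7 nuclear members, with 0 adjusted, and 0 to 2 and 1 to 2 mitochondrially encoded members, with 0 to 1 higher and 0 lower adjusted. Without KO 1 the adjusted calls over all genes were 1 and 1, and without KO 2 they were 1 and 2. That 1 gene was mt-Nd3 without control 1, where the control arm is the library listed at 0, so the fitted 5.51 is no fold and its call says nothing of the groups. In these fits the lone library of an arm is assumed to vary like the other group. The median log2 fold change ran from 0.0043 to 0.087 for nuclear and from -0.13 to 0.14 for mitochondrially encoded members. Signs of the fitted log2 values, which for mt-Nd3 and mt-Nd4l are no folds, turned over the 4 fits for Cycs (-0.023 to 0.060), Sdhc (-0.11 to 0.36), Sdhd (-0.060 to 0.0063), Cyc1 (-0.14 to 0.087), Atp5g1 (-0.080 to 0.19), Atp5g3 (-0.039 to 0.16), mt-Nd1 (-0.33 to 0.14), mt-Nd2 (-0.15 to 0.11), mt-Nd3 (-0.18 to 5.51), mt-Nd4 (-0.26 to 0.093), mt-Nd4l (-5.64 to 0.46), mt-Co1 (-0.0095 to 0.47), mt-Co2 (-0.13 to 0.18), mt-Atp6 (-0.12 to 0.29) and mt-Atp8 (-0.095 to 0.19). With depth unknown, no limit from counting could be given.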
